A study of Mus musculus with 3 samples.

Results

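The 10 genes described here encode the transcription factor NRF2 (Nfe2l2), its relatives NRF1 (Nfe2l1) and NRF3 (Nfe2l3), the proteins that control its breakdown (Keap1, Cul3, Sqstm1), the competing repressor Bach1 and the small MAF partners Mafg, Mafk and Maff. They were listed by name from the 41214 gene identifiers of the count tables, with earlier results of these data known. All 10 were found, and all 10 were among the 11865 genes with at least 1 CPM (a gene's counts per 1000000 counts of its library, with the total scaled by TMM factors) in at least 1 library. RNA was sequenced from cultures of mouse keratinocytes, the epithelial cells of the epidermis, with 1 library per genotype. The library labelled ARPC4 ko lacks, by its label, a subunit of the actin-nucleating Arp2/3 complex, and its title names Cre, a recombinase. The library labelled Nrf2-EGFP expresses, by its label, Nrf2 fused to the fluorescent protein EGFP, and its title adds "High", a word that no label explains. The third library, wt, carries neither change. All 3 cultures were of strain C57BL/6, immortalised with SV40 and growing exponentially. The labels state neither the promoter of the fusion nor the species of its Nrf2 sequence, and neither the deleted part of Arpc4 nor the number of clones.

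NRF2 drives antioxidant and detoxification genes from antioxidant response elements, which it binds as a dimer with a small MAF protein. In unstressed cells Keap1 holds NRF2 and presents it to the Cul3 ubiquitin ligase, so that NRF2 is controlled mainly through the stability of the protein rather than through its mRNA. In the epidermis NRF2 is known for its role in the defence against reactive oxygen species and in the expression of some cornified envelope genes. The counts below measure mRNA and say nothing of NRF2 protein or its location.

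The libraries held 23033863 (ARPC4 ko), 25723959 (Nrf2-EGFP) and 22924294 (wt) gene counts. With 1 library per genotype no difference was tested. Ranges in parentheses are exact 95% counting intervals, which compare libraries, not genotypes, and in bulk RNA fewer cells of a type and less RNA per cell cannot be told apart. All 8 keratinocyte markers examined were above the filter in at least 1 library, and their summed level was 11485 CPM in ARPC4 ko, 15771 CPM in Nrf2-EGFP and 20867 CPM in wt. The summed levels of fibroblast, immune, melanocyte and endothelial markers lay between 1.07 and 6.21 CPM, with Col1a2, Col3a1, Dcn, Lum, Cd3e, Adgre1, Lyz2, Tyr and Dct at 0 counts in every library. Of these lists Cd68, Mitf, Pdgfra and Pecam1 passed the filter. In ARPC4 ko, Nrf2-EGFP and wt Cd68 had 150, 117 and 124 counts and Mitf had 108, 39 and 56. The log2 fold (of CPM + 0.5) of Mitf was 1.26 in ARPC4 ko against Nrf2-EGFP. Most of the keratinocyte sum came from the basal keratins, with Krt5 at 4260 CPM in ARPC4 ko, 6248 CPM in Nrf2-EGFP and 8997 CPM in wt and Krt14 at 3249, 4932 and 7378 CPM. These 2, Perp and Cdh1 were lowest in ARPC4 ko and highest in wt, whereas Trp63 and Epcam were lowest in wt and Itga6 and Itgb4 were highest in Nrf2-EGFP. The part of these markers in the results below was not tested. Arpc4 had 61.0 CPM in the library labelled ARPC4 ko, 98.4 CPM in the library labelled Nrf2-EGFP and 94.2 CPM in wt. It was 1.54-fold lower in ARPC4 ko than in wt (1.44 to 1.65), so its mRNA was lower and not absent. Whether the counted exons lie in the deleted part cannot be read from the labels. Nfe2l2 counts were not higher in the library labelled Nrf2-EGFP, as described below, and every direction drawn from it is that of the library as labelled.

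Sequence before the start sites was examined first, for Nfe2l2 itself, for the member furthest below wt in both other libraries (Sqstm1) and for the 3 furthest above it (Mafk, Maff, Nfe2l3). Each line gives the 250 bases before a RefSeq start site (GRCm38.p6), read 5′ to 3′ on the gene's strand, with matches on either strand to the core of the antioxidant response element, TGANNNNGC, in capitals.
Nfe2l2 (chr2:75704664-75704913, minus strand): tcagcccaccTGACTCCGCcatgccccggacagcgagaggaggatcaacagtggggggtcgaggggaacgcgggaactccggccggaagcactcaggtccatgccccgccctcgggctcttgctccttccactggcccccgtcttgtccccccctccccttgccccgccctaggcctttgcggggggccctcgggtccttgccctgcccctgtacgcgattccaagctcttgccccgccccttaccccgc
Sqstm1 (chr11:50210821-50211070, minus strand): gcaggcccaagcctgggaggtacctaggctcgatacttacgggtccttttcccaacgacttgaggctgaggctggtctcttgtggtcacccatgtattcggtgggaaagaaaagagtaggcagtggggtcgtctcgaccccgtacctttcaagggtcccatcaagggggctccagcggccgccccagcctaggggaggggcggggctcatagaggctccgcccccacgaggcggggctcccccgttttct
Mafk (chr5:139791286-139791535, plus strand): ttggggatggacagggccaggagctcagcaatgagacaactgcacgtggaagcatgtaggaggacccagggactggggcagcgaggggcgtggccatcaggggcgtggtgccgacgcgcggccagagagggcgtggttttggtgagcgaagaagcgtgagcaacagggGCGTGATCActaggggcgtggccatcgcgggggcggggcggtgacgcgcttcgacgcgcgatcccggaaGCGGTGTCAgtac
Maff (chr15:79346371-79346620, plus strand, the first of 3 start sites): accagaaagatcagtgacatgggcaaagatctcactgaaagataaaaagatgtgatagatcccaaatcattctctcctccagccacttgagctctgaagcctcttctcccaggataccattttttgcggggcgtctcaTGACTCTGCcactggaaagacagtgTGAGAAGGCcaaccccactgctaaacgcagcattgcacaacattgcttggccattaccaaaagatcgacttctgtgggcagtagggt
Nfe2l3 (chr6:51432419-51432668, plus strand): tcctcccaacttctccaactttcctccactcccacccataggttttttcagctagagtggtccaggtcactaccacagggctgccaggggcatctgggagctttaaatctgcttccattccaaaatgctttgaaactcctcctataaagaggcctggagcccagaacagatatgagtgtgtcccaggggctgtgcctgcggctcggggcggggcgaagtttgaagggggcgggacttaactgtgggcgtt

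The window of Nfe2l2 held 1 match, TGACTCCGC, that began 240 bases before the start site. That of Mafk held 2 matches on the opposite strand, TGATCACGC and TGACACCGC, at 82 and 13 bases before it, and that of Maff held TGACTCTGC and TGAGAAGGC at 112 and 87 bases before it. The windows of Sqstm1 and Nfe2l3 held no match, which says only that these letters are not within these 250 bases. RefSeq gave 16 windows for the 10 genes, since Maff has 3 start sites and Nfe2l1 has 5, and several windows of Nfe2l1 overlap. A match was present in 10 of the 16 windows, beside 35.2% of all 32851 windows of the same length. The 10 windows belong to 6 genes, namely Nfe2l2, Keap1, Mafg, Mafk, Maff and Nfe2l1, and 5 of them to Nfe2l1 alone. The match TGAGGCTGC, at 207, 125 and 11 bases before different start sites of Nfe2l1, is the same site in overlapping windows. It was counted in each of them, so the share of windows is partly repeated counting. The AP-1 motif TGANTCA, which can overlap the response element, was in none of the 16 windows and in 6.75% of all. The E-box CACGTG was in 1 window each of Mafg, Mafk and Maff, without overlap with the matches above, and in 6.02% of all windows. Of the 6 genes with a match, Mafg, Mafk and Maff were higher than in wt in both other libraries, and Nfe2l2 and Nfe2l1 were lower. Keap1 was higher in Nrf2-EGFP, and its interval in ARPC4 ko included 1. Genes without a match also lay on both sides, with Nfe2l3 and, in ARPC4 ko, Bach1 above wt and Sqstm1 and Cul3 below it. A link between matches and direction was not tested.

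Nfe2l2 itself (ENSMUSG00000015839, chromosome 2, 75675513 to 75704641, minus strand, mm10) had its highest mRNA level in wt and its lowest in the library labelled with the Nrf2 fusion. It had 4363 counts, or 179 CPM, in ARPC4 ko, 4135 counts, or 166 CPM, in Nrf2-EGFP and 5053 counts, or 225 CPM, in wt. The 3 counting intervals of these levels (174 to 185, 161 to 172 and 219 to 231 CPM) did not overlap. Nfe2l2 was 1.25-fold lower in ARPC4 ko than in wt (1.20 to 1.30) and 1.35-fold lower in Nrf2-EGFP than in wt (1.30 to 1.41). Between the first 2 libraries it was 1.08-fold higher in ARPC4 ko (1.03 to 1.13). Both differences were under 2-fold, and 17.9% of the 11865 genes had a log2 fold (of CPM + 0.5) at least as low in ARPC4 ko against wt, and 10.8% in Nrf2-EGFP against wt. By level Nfe2l2 was among the more abundant mRNAs, with 9.85% of the tested genes above it in ARPC4 ko, 12.2% in Nrf2-EGFP and 7.72% in wt. How many reads of the fusion could map to mouse Nfe2l2 depends on a construct that the labels do not describe, so native and fusion mRNA cannot be told apart here.

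Both comparisons with wt share the wt library, so a low or high value there enters both, and the values are set side by side without a measure of their likeness. None of the 10 genes passed the 2-fold size rule (a log2 fold of CPM + 0.5 of at least 1 in size with a counting interval of the ratio that excludes 1) in any comparison. Of all tested genes 6.76% passed it in ARPC4 ko against wt (4.7% higher, 2.06% lower), 5.61% in Nrf2-EGFP against wt (3.57% higher, 2.05% lower) and 2.98% in ARPC4 ko against Nrf2-EGFP (2.01% higher, 0.961% lower). A ratio whose interval excluded 1 was common in these deep libraries, at 66.3%, 62.9% and 55.4% of all tested genes in the same order of comparisons. In ARPC4 ko against wt the interval lay above 1 for 5 of the 10 genes, against 31.6% of all tested genes, and below 1 for 4, against 34.6%. In Nrf2-EGFP against wt it lay above 1 for 5, against 32.1%, and below 1 for 4, against 30.8%. In ARPC4 ko against Nrf2-EGFP it lay above 1 for 2, against 23.6%, and below 1 for 5, against 31.8%. Intervals narrow as counts rise. Among genes with at least 10 CPM in 1 library the shares above and below 1 were 32.1% and 39.7% in ARPC4 ko against wt. They were 35.6% and 33.2% in Nrf2-EGFP against wt and 22.3% and 37.6% in ARPC4 ko against Nrf2-EGFP. With scaling by total counts the shares of all tested genes above and below 1 became 42.3% and 24.4% in ARPC4 ko against wt and 42.6% and 16.1% in ARPC4 ko against Nrf2-EGFP. The 10 genes themselves then split into 6 above and 4 below 1 in ARPC4 ko against wt, and into 3 above and 2 below 1 in ARPC4 ko against Nrf2-EGFP. The median log2 fold of the 10 genes was 0.06, 0.09 and -0.09 in the 3 comparisons, beside -0.01, 0.00 and -0.02 over all tested genes. The value of -0.09, for ARPC4 ko against Nrf2-EGFP, turned to 0.04 with scaling by total counts, beside 0.11 over all genes. The 10 genes spread to both sides of 0, with extremes of -0.91 and 0.88 in ARPC4 ko against wt and of -0.70 and 0.87 in Nrf2-EGFP against wt.

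**Figure D1:**
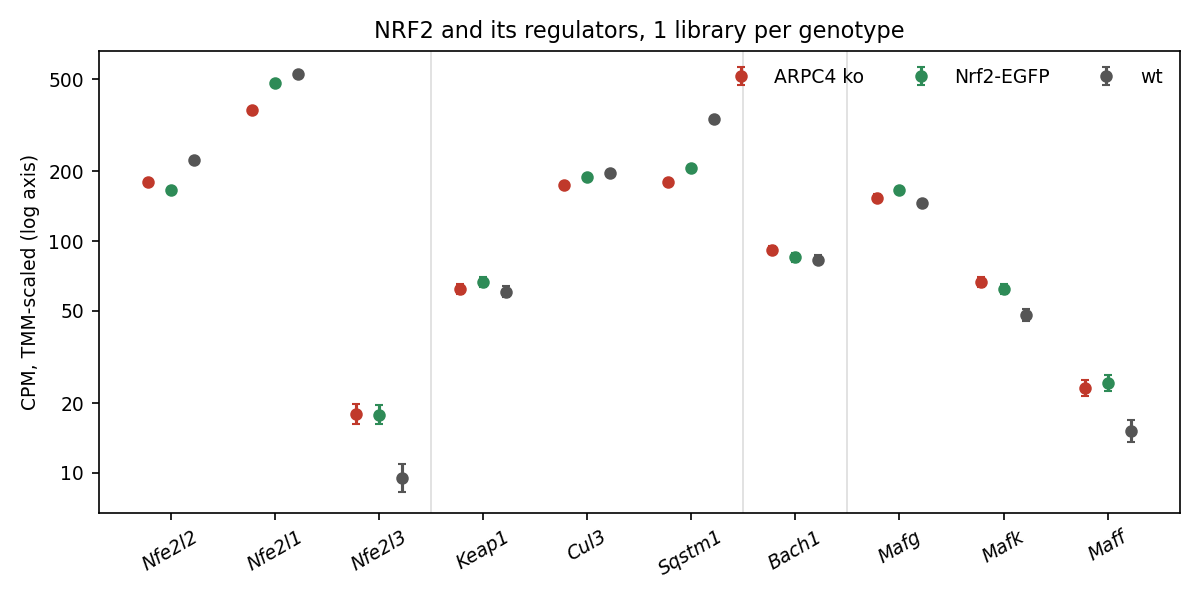
Level of each gene in CPM (log axis) in the ARPC4 ko, Nrf2-EGFP and wt libraries, 1 point per library with its 95% counting interval. Nfe2l2 and Sqstm1 are highest in wt, at 225 and 337 CPM, whereas Mafk, Maff and Nfe2l3 are lowest in wt, at 48.0, 15.2 and 9.52 CPM.

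**Figure D2:**
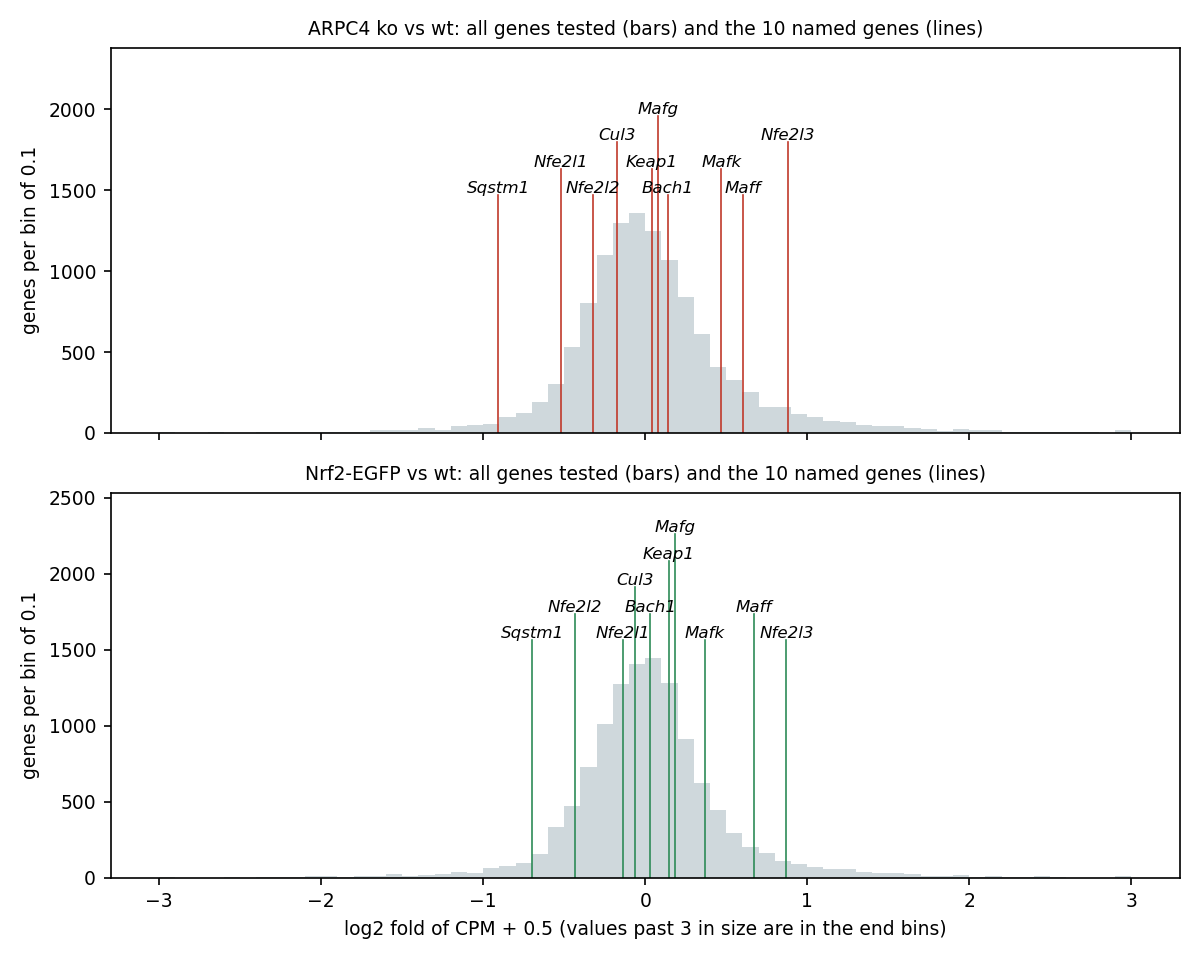
Histogram of the log2 fold (CPM + 0.5) of all 11865 tested genes for ARPC4 ko against wt (top) and Nrf2-EGFP against wt (bottom), with a line at each of the 10 genes. Sqstm1 lies in the lower tail in both panels, at -0.91 and -0.70, and Nfe2l3 in the upper tail, at 0.88 and 0.87.

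Among the proteins that control NRF2 stability, Sqstm1 differed most and Keap1 and Cul3 little. Sqstm1 (ENSMUSG00000015837, chromosome 11, 50199366 to 50210827) encodes p62, an autophagy receptor that competes with NRF2 for Keap1 and carries Keap1 into autophagosomes. It had 179 CPM in ARPC4 ko, 208 CPM in Nrf2-EGFP and 337 CPM in wt, from 4360, 5160 and 7580 counts. The wt library stood apart, and the interval of ARPC4 ko (174 to 185 CPM) also lay below that of Nrf2-EGFP (202 to 213 CPM). Sqstm1 was 1.88-fold lower in ARPC4 ko than in wt (1.81 to 1.95) and 1.62-fold lower in Nrf2-EGFP than in wt (1.57 to 1.68). Only 2.49% of the tested genes were at least as low in the comparison of ARPC4 ko with wt by log2 fold, and 4.17% in that of Nrf2-EGFP with wt. ARPC4 ko lay 1.16-fold below Nrf2-EGFP (1.11 to 1.21). Exons of Sqstm1 share 580 bases with those of Mrnip on the opposite strand, which had 105, 69 and 137 counts in ARPC4 ko, Nrf2-EGFP and wt. The strand option of the counting is not known, so reads in the shared bases may have been counted to neither gene.

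Keap1 (ENSMUSG00000003308, chromosome 9, 21229730 to 21239361), the sensor and substrate adaptor whose reactive cysteines release NRF2 under oxidative stress, had 62.2 CPM in ARPC4 ko, 66.9 CPM in Nrf2-EGFP and 60.5 CPM in wt. The intervals of ARPC4 ko and wt overlapped, and their ratio was 1.03 (0.955 to 1.11). Nrf2-EGFP was 1.11-fold above wt (1.03 to 1.19). The antisense gene Gm16754, with at most 4 counts, shares 510 exonic bases with Keap1, and reads there may likewise have been counted to neither gene. Cul3 (ENSMUSG00000004364, chromosome 1, 80264923 to 80340480), the scaffold of the ligase that ubiquitinates NRF2, had 174 CPM in ARPC4 ko, 189 CPM in Nrf2-EGFP and 197 CPM in wt. It was 1.13-fold lower in ARPC4 ko than in wt (1.08 to 1.18) and 1.05-fold lower in Nrf2-EGFP than in wt (1.004 to 1.09). The last interval reached 1 when the libraries were scaled with DESeq2 size factors. ARPC4 ko against Nrf2-EGFP gave log2 folds of -0.10 for Keap1 and -0.11 for Cul3, and both turned positive, to 0.02, with scaling by total counts.

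The competing repressor and the small MAF partners lay at or above wt in both other libraries. Bach1 (ENSMUSG00000025612, chromosome 16, 87698945 to 87733346), a haem-sensitive repressor that occupies response elements together with small MAF proteins, had 91.8 CPM in ARPC4 ko, 85.2 CPM in Nrf2-EGFP and 83.3 CPM in wt. It was 1.10-fold above wt in ARPC4 ko (1.04 to 1.17), whereas the interval of the ratio of Nrf2-EGFP to wt, 1.02 (0.960 to 1.09), included 1. Small MAF proteins bind DNA but have no activation domain of their own, and dimerise with either NRF2 or BACH1. Mafg (ENSMUSG00000051510, chromosome 11, 120625117 to 120633600), the most abundant of them here per length, had 154 CPM in ARPC4 ko, 166 CPM in Nrf2-EGFP and 146 CPM in wt. Its ratio was 1.06 for ARPC4 ko to wt (1.01 to 1.11) and 1.14 for Nrf2-EGFP to wt (1.09 to 1.19). Mafg shares 124 exonic bases with Sirt7 on the same strand, with 781, 837 and 857 counts in ARPC4 ko, Nrf2-EGFP and wt, and reads there may have been counted to neither gene.

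Mafk (ENSMUSG00000018143, chromosome 5, 139791513 to 139802653) had 66.6 CPM in ARPC4 ko, 62.1 CPM in Nrf2-EGFP and 48.0 CPM in wt, from 1619, 1543 and 1079 counts. Both libraries lay above wt, 1.39-fold in ARPC4 ko (1.28 to 1.50) and 1.29-fold in Nrf2-EGFP (1.20 to 1.40). Its exons share 169 bases with those of Tmem184a on the opposite strand, which had 961, 1323 and 928 counts in ARPC4 ko, Nrf2-EGFP and wt. Reads in these bases too may have been counted to neither gene. Maff (ENSMUSG00000042622, chromosome 15, 79346621 to 79359076) is a small MAF gene known for its induction by cytokines. It had 23.3 CPM in ARPC4 ko, 24.4 CPM in Nrf2-EGFP and 15.2 CPM in wt, from 566, 607 and 341 counts. It lay 1.54-fold above wt in ARPC4 ko (1.34 to 1.76) and 1.61-fold above wt in Nrf2-EGFP (1.41 to 1.84). By log2 fold, 10.5% of the tested genes were at least as high in ARPC4 ko against wt and 7.10% in Nrf2-EGFP against wt. Between ARPC4 ko and Nrf2-EGFP the intervals of the ratios of Mafk (1.07, 0.9996 to 1.15) and Maff (0.953, 0.848 to 1.07) included 1. That of Mafk excluded 1 with DESeq2 size factors (1.001 to 1.15) and with total counts (1.09 to 1.26). The Maff log2 fold between them, -0.07, turned to 0.06 with scaling by total counts, and that of Mafg turned from -0.11 to 0.02.

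Summed over the 3 genes, small MAF mRNA was 244 CPM in ARPC4 ko, 253 CPM in Nrf2-EGFP and 209 CPM in wt. The sum was 1.17-fold higher in ARPC4 ko than in wt (1.12 to 1.21) and 1.21-fold above wt in Nrf2-EGFP (1.16 to 1.26), and it lay above wt under each of the 3 scalings. Between ARPC4 ko and Nrf2-EGFP its ratio of 0.967 (0.933 to 1.002) turned to 1.06 (1.02 to 1.09) with scaling by total counts. On a per-length scale (CPM per kilobase of annotated exon) Mafg made up 51.4% of the 3 in ARPC4 ko, 53.9% in Nrf2-EGFP and 58.9% in wt. Mafk made up 31.9%, 29.0% and 27.9%, and Maff 16.8%, 17.1% and 13.2% in the same order of libraries. Mafg thus held a smaller share in the ARPC4 ko and Nrf2-EGFP libraries than in wt.

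**Figure D3:**
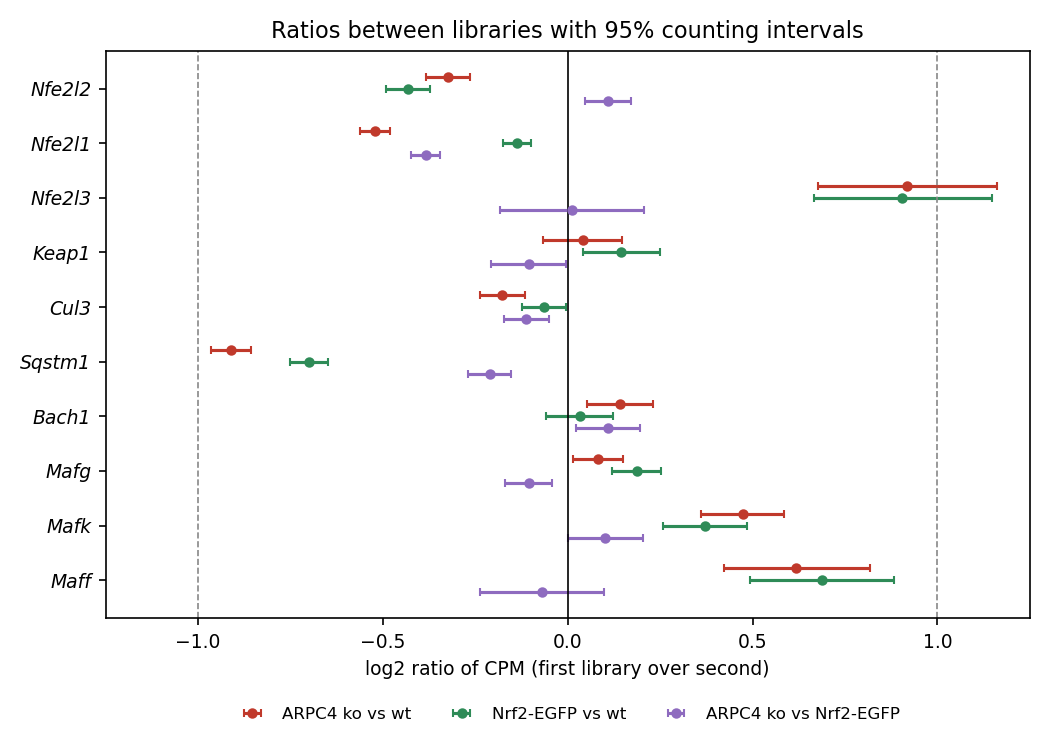
Log2 ratio of CPM between libraries for each gene, with 95% counting intervals, for ARPC4 ko over wt, Nrf2-EGFP over wt and ARPC4 ko over Nrf2-EGFP. Dashed lines mark 2-fold, which no point passes, and Sqstm1 (1.88-fold lower) and Nfe2l3 (1.89-fold higher) in ARPC4 ko lie nearest to them.

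The 2 relatives of NRF2 differed from wt in opposite directions. Nfe2l1 (ENSMUSG00000038615, chromosome 11, 96817414 to 96829968) encodes NRF1, which is held in the endoplasmic reticulum and, once cleaved and released, raises the transcription of proteasome subunit genes. It had 369 CPM in ARPC4 ko, 481 CPM in Nrf2-EGFP and 529 CPM in wt, from 8965, 11959 and 11902 counts. ARPC4 ko stood apart below the other two. Nfe2l1 was 1.44-fold lower in ARPC4 ko than in wt (1.40 to 1.48), 1.10-fold lower in Nrf2-EGFP than in wt (1.07 to 1.13) and 1.31-fold lower in ARPC4 ko than in Nrf2-EGFP (1.27 to 1.34). By log2 fold, 7.87% of the tested genes were at least as low in ARPC4 ko against wt, and 33.7% in Nrf2-EGFP against wt. It was the member with the largest difference between ARPC4 ko and Nrf2-EGFP.

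Nfe2l3 (ENSMUSG00000029832, chromosome 6, 51432670 to 51458768) encodes NRF3, a less studied relative that is also bound to the endoplasmic reticulum. It had 18.0 CPM in ARPC4 ko, 17.8 CPM in Nrf2-EGFP and 9.52 CPM in wt, from 437, 443 and 214 counts. The ARPC4 ko and Nrf2-EGFP libraries did not differ beyond their intervals (ratio 1.01, 0.881 to 1.15), and both lay above wt. Nfe2l3 lay 1.89-fold above wt in ARPC4 ko (1.60 to 2.24) and 1.87-fold above it in Nrf2-EGFP (1.59 to 2.22). By log2 fold, 5.93% and 4.53% of the tested genes were at least as high in these comparisons. As the least abundant of the 3 NFE2L genes, Nfe2l3 made up 4.99% of their summed per-length level in ARPC4 ko, 4.34% in Nrf2-EGFP and 2.005% in wt. The sum of the 3 was 566 CPM in ARPC4 ko, 666 CPM in Nrf2-EGFP and 764 CPM in wt.

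The order of the 10 genes per length was similar in the 3 libraries, with Nfe2l1, Sqstm1, Nfe2l2 and Cul3 at the top and Maff and Nfe2l3 at the bottom. In ARPC4 ko the levels were 67.8 CPM per kilobase for Nfe2l1, 53.4 for Sqstm1, 47.3 for Nfe2l2, 35.8 for Cul3, 27.5 for Mafg, 17.1 for Mafk, 14.9 for Bach1, 13.3 for Keap1, 8.98 for Maff and 6.05 for Nfe2l3. No neighbours in that order had overlapping counting intervals. In Nrf2-EGFP Nfe2l1 led with 88.5 CPM per kilobase, before Sqstm1 with 61.9 and Nfe2l2 with 43.8, and the intervals of Keap1 (14.3) and Bach1 (13.8) overlapped. In wt Sqstm1 (100.4 CPM per kilobase) and Nfe2l1 (97.3) led with overlapping intervals, before Nfe2l2 with 59.2. There the intervals of Bach1 (13.5) and Keap1 (12.9) overlapped, as did those of Keap1 and Mafk (12.3). With the length of the longest transcript in place of all exons, Nfe2l2 (72.5 CPM per kilobase) passed Sqstm1 (67.1) in ARPC4 ko. Keap1 then passed Bach1 there (17.2 against 15.6), and in wt Keap1 (16.7) and Mafk (15.5) both passed Bach1 (14.2). These lengths are approximate, as the labels do not name the annotation used for counting.

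Ratios between members within 1 library do not depend on how the libraries were scaled. For each count of Keap1 there were 2.89 counts of Nfe2l2 in ARPC4 ko (2.72 to 3.06), 2.49 in Nrf2-EGFP (2.35 to 2.63) and 3.72 in wt (3.50 to 3.95). The 3 intervals did not overlap, and wt was the highest. Over Bach1 the ratio of Nfe2l2 counts was 1.95 in ARPC4 ko (1.86 to 2.06), 1.95 in Nrf2-EGFP (1.85 to 2.06) and 2.70 in wt (2.56 to 2.85). Over the sum of the small MAF genes it was 0.735 in ARPC4 ko (0.706 to 0.764), 0.659 in Nrf2-EGFP (0.633 to 0.685) and 1.07 in wt (1.03 to 1.12). Relative to the repressor, to the sensor and to the partners, Nfe2l2 mRNA was thus highest in wt. Relative to Sqstm1 it was lowest there, at 1.001 in ARPC4 ko (0.959 to 1.04), 0.801 in Nrf2-EGFP (0.769 to 0.835) and 0.667 in wt (0.643 to 0.691). Sqstm1 over Keap1 was 2.88 in ARPC4 ko (2.72 to 3.06), 3.10 in Nrf2-EGFP (2.94 to 3.28) and 5.57 in wt (5.26 to 5.91), the widest gap among the ratios computed. Nfe2l1 over Nfe2l2 was 2.05 in ARPC4 ko (1.98 to 2.13), 2.89 in Nrf2-EGFP (2.79 to 3.00) and 2.36 in wt (2.28 to 2.43), with wt between the others. These are ratios of counts, not of molecules, since the genes differ in length.

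**Figure D4:**
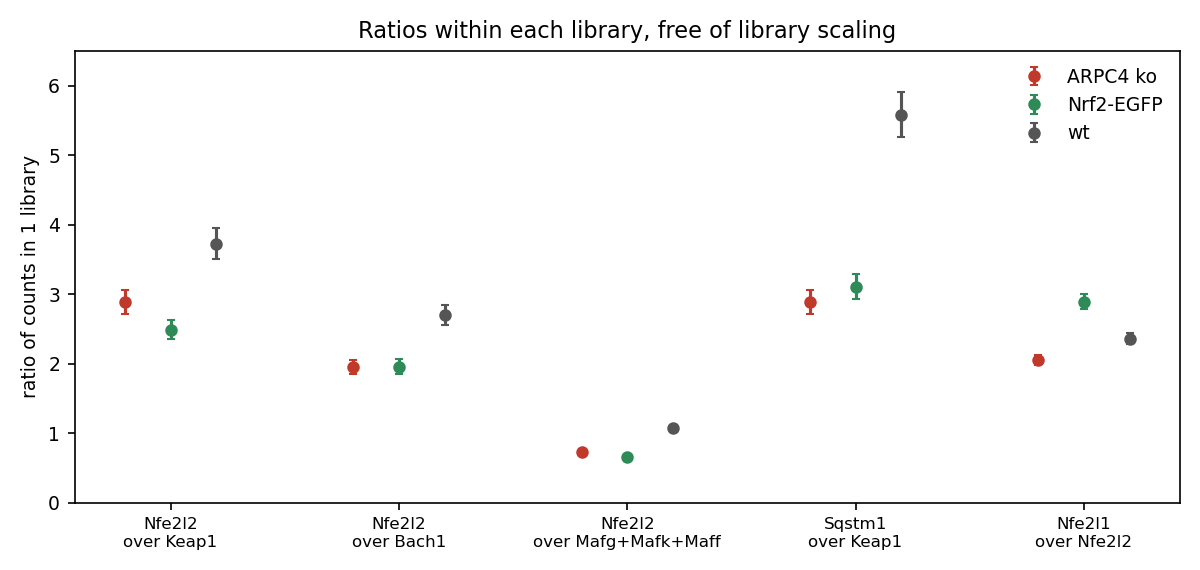
Ratio of the counts of 2 genes or gene groups within each library, for ARPC4 ko, Nrf2-EGFP and wt, with 95% counting intervals. The ratios of Nfe2l2 to Keap1, Bach1 and the 3 small MAF genes and of Sqstm1 to Keap1 are highest in wt, at 3.72, 2.70, 1.07 and 5.57.

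The surrounding pathways were described by lists of other genes, whose counts past the size rule stand beside 6.76% of all tested genes in ARPC4 ko against wt and 5.61% in Nrf2-EGFP against wt. Of 15 measured genes of the other NRF2 degradation routes, which include the beta-TrCP and GSK3 pathway, none passed the size rule against wt in either library. The median log2 fold was -0.05 in ARPC4 ko, which turned to 0.06 with scaling by total counts, and 0.08 in Nrf2-EGFP. In ARPC4 ko against wt the largest differences of the list were in Usp15, a deubiquitinase, 1.44-fold lower (1.36 to 1.51), and Trim21, a ubiquitin ligase, 1.51-fold higher (1.20 to 1.91). In Nrf2-EGFP they were in Btrc, the substrate receptor beta-TrCP, 1.26-fold higher (1.08 to 1.46), and Ddb1, a Cul4 adaptor, 1.22-fold higher (1.20 to 1.24). Of 12 coactivators and partner factors none passed either. Among them Atf4, the transcription factor of the integrated stress response, was lower than in wt in both libraries, with 358 CPM in ARPC4 ko, 468 CPM in Nrf2-EGFP and 702 CPM in wt. Its ratios to wt were 0.510 in ARPC4 ko (0.497 to 0.524) and 0.666 in Nrf2-EGFP (0.651 to 0.683). Jund, an AP-1 subunit, was 1.24-fold higher in ARPC4 ko than in wt (1.17 to 1.32), and Smarca4, a chromatin remodelling ATPase, was 1.34-fold higher in Nrf2-EGFP (1.30 to 1.38).

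Among 24 genes of autophagy and the Sqstm1 route, 1 higher and 1 lower gene passed the size rule in ARPC4 ko against wt, against 6.76% of all tested genes, and none did in Nrf2-EGFP, against 5.61%. A count of 2 of 24 is near the share over all genes. The median log2 folds were 0.02 and -0.04. Optn, another autophagy receptor, had 14.3 CPM in ARPC4 ko and 6.89 CPM in wt, a 2.08-fold higher level (1.71 to 2.53) that fell short of the rule with a pseudocount of 2 CPM (log2 fold 0.88). Sesn2, a stress-induced sestrin that binds p62 and promotes Keap1 degradation, had 37.1 CPM in ARPC4 ko, 44.9 CPM in Nrf2-EGFP and 78.1 CPM in wt. It was 2.10-fold lower in ARPC4 ko than in wt (1.94 to 2.28), a call that ended with scaling by total counts (log2 fold -0.96), and 1.74-fold lower in Nrf2-EGFP than in wt (1.61 to 1.88). Wdfy3, a scaffold of selective autophagy, was 1.60-fold above wt in Nrf2-EGFP (1.53 to 1.66).

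Of the other CNC and large MAF genes, Nfe2 and Nrl had 0 counts in every library, which allows up to 0.123, 0.121 and 0.133 CPM in ARPC4 ko, Nrf2-EGFP and wt, and Mafa had 4 to 7 counts. Maf, a large MAF factor, had 7.20 CPM in ARPC4 ko, 7.08 CPM in Nrf2-EGFP and 16.8 CPM in wt. It was 2.33-fold lower in ARPC4 ko than in wt (1.94 to 2.80) and 2.37-fold lower in Nrf2-EGFP than in wt (1.97 to 2.85), past the size rule in both comparisons and under the alternatives run. Maf thus lay below wt in both libraries, whereas the 3 small MAF genes lay above it. Bach2 had 57, 84 and 40 counts in ARPC4 ko, Nrf2-EGFP and wt.

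The lists tied to Nfe2l1 had medians below wt. Of 11 NRF1 processing genes none passed the size rule, and the median log2 fold was -0.22 in ARPC4 ko and -0.07 in Nrf2-EGFP. Sel1l, a component of the ligase complex that extracts proteins from the endoplasmic reticulum, was 1.57-fold lower in ARPC4 ko than in wt (1.50 to 1.65) and 1.43-fold lower in Nrf2-EGFP (1.36 to 1.49). Rad23b, a ubiquitin receptor that delivers substrates to the proteasome, was 1.27-fold lower in ARPC4 ko (1.24 to 1.31), and Ogt, the O-GlcNAc transferase, was 1.30-fold lower in Nrf2-EGFP (1.25 to 1.36). Of 37 proteasome genes none passed the size rule. Their counting intervals lay below 1 for 32 of the 37 in ARPC4 ko against wt and for 23 in Nrf2-EGFP against wt, beside 34.6% and 30.8% of all tested genes. Among genes with at least 10 CPM in 1 library those shares were 39.7% and 33.2%. The count of 32 became 24 with scaling by total counts, which raised the median log2 fold of all genes by 0.10 in that comparison. The share of all tested genes below 1 was then 24.4%. The median log2 fold of the 37 was -0.24 in ARPC4 ko and -0.13 in Nrf2-EGFP. It lay 0.22 to 0.23 below that of all genes in ARPC4 ko under each scaling. The 8 keratinocyte markers had a median of -0.27 in ARPC4 ko (-0.17 with scaling by total counts) and 0.00 in Nrf2-EGFP. Their part in this result was not tested. Psma1, a subunit of the core particle, had 161 CPM in ARPC4 ko and 235 CPM in wt, and Psma5, another, had 84.3 CPM in ARPC4 ko, 83.7 CPM in Nrf2-EGFP and 116 CPM in wt. Psmd4, a ubiquitin receptor of the proteasome, had 150.4 CPM in Nrf2-EGFP and 204 CPM in wt.

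NRF2 targets were set beside the levels of Nfe2l2. Of 44 targets listed 38 passed the filter, and their median log2 fold was -0.20 in ARPC4 ko against wt and 0.09 in Nrf2-EGFP against wt. The value of -0.20 became -0.09 with scaling by total counts, and it lay 0.18 below that of all genes under each scaling. The keratinocyte markers had a median of -0.27 in ARPC4 ko against wt (-0.17 with scaling by total counts), and their part was not tested. Counting intervals lay above 1 for 9 and below 1 for 20 in ARPC4 ko against wt, beside 31.6% and 34.6% of all tested genes. In Nrf2-EGFP against wt they lay above 1 for 19 and below 1 for 10, beside 32.1% and 30.8%. Against wt the genes past the size rule were Aldh3a1, Gstm1 (higher) and Nqo1 (lower) in ARPC4 ko, and Gsta4, Ces1g, Aldh3a1 (higher) and Mgst1 (lower) in Nrf2-EGFP. That is 3 and 4 of 38, beside 6.76% and 5.61% of all tested genes. Ces1g reached the filter of 1 CPM through Nrf2-EGFP alone, Aldh3a1 through ARPC4 ko and Nrf2-EGFP but not wt, and Mgst1 through ARPC4 ko and wt but not Nrf2-EGFP, so a difference in that direction was built into their selection. With a pseudocount of 2 CPM only Nqo1 and Aldh3a1 in ARPC4 ko and Gsta4 in Nrf2-EGFP still passed. Aldh3a1, an aldehyde dehydrogenase, had 60 counts in ARPC4 ko, 41 in Nrf2-EGFP and 4 in wt. Gsta4, a glutathione S-transferase, had 15.0 CPM in ARPC4 ko, 26.6 CPM in Nrf2-EGFP and 7.83 CPM in wt, and was 3.40-fold above wt in Nrf2-EGFP (2.88 to 4.04). Ces1g, a carboxylesterase, had 19 counts in ARPC4 ko, 79 in Nrf2-EGFP and 14 in wt, and Nqo1, the quinone reductase, had 269, 321 and 550. Directly between ARPC4 ko and Nrf2-EGFP, intervals lay below 1 for 29 of 38 targets and above 1 for 5, beside 31.8% and 23.6% of all tested genes. With scaling by total counts the split was 21 and 7, beside 16.1% and 42.6% of all tested genes. The median log2 fold of the targets was -0.25, and it lay 0.23 below that of all genes under each scaling. Intervals of the keratinocyte markers also lay below 1 for 8 of 8 in this comparison, with a median of -0.26. With scaling by total counts they lay below 1 for 5 and above 1 for 2, with a median of -0.14. The part of these markers was not tested. Past the size rule were Gstm1 and Mgst1 (higher in ARPC4 ko) and Ces1g (lower), and none of these calls held with a pseudocount of 2 CPM. Gclc, the catalytic subunit of the enzyme that makes glutathione's precursor, had 65.8 CPM in ARPC4 ko and 110.0 CPM in Nrf2-EGFP. Txnrd1, thioredoxin reductase, had 262 CPM in ARPC4 ko and 364 CPM in Nrf2-EGFP, and Hmox1, haem oxygenase, had 36.9 CPM in ARPC4 ko and 55.6 CPM in Nrf2-EGFP. These 3 were chosen after their values were seen. Nfe2l2 itself was 1.08-fold higher in ARPC4 ko in that comparison, the other direction from most of its targets. Glutathione S-transferase and carboxylesterase genes have close paralogs that can share reads, so their counts are uncertain.

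**Figure D5:**
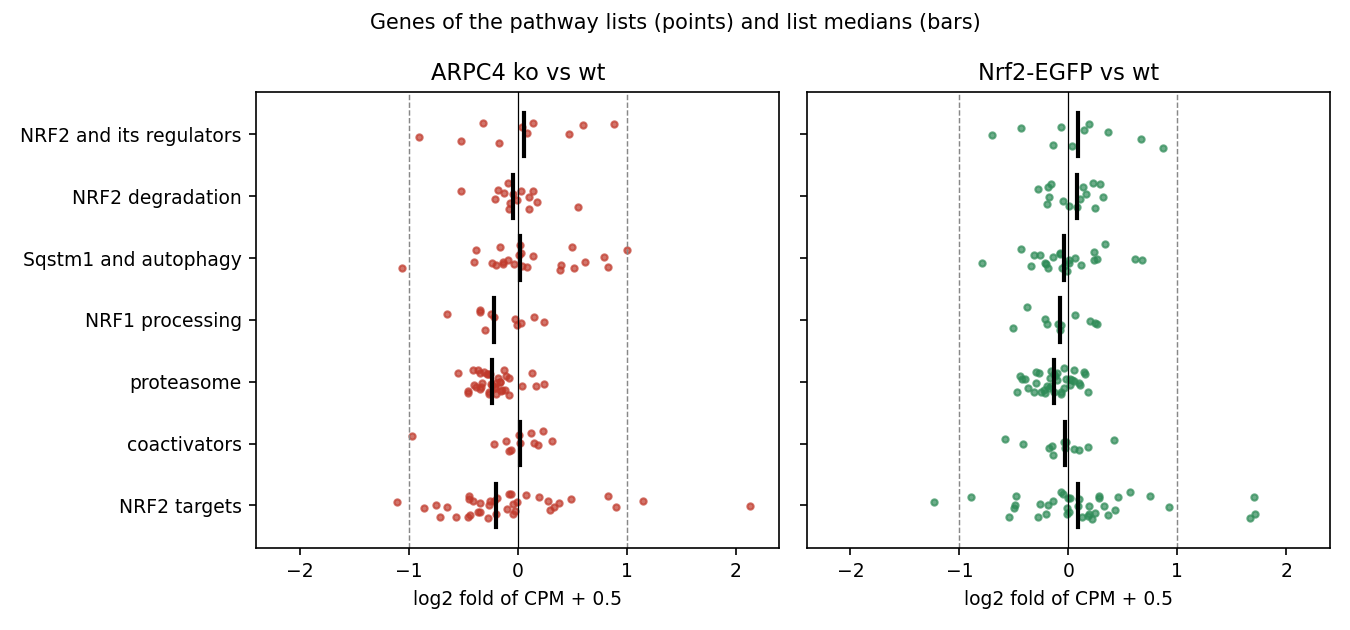
Log2 fold (CPM + 0.5) of each measured gene (points) and the median (bar) for NRF2 and its regulators and 6 related lists, for ARPC4 ko against wt (left) and Nrf2-EGFP against wt (right); dashed lines mark a log2 fold of 1 in size. The proteasome genes have medians of -0.24 and -0.13, and the NRF2 targets of -0.20 and 0.09.

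The genes with the pattern nearest to that of Nfe2l2 over the 3 libraries were Zranb2, Ppp2r3c, Tbc1d31, Ubr7 and Lrrc57. Likeness was measured as the Euclidean distance between the pairs of log2 folds against wt, which for Nfe2l2 were -0.32 in ARPC4 ko and -0.43 in Nrf2-EGFP, among 8459 other named genes with at least 10 CPM in every library. Zranb2, a splicing factor with zinc fingers, lay at a distance of 0.013, with 134 CPM in ARPC4 ko, 123 CPM in Nrf2-EGFP and 167 CPM in wt. The fifth, Lrrc57, lay at 0.021. A distance of up to 0.1 was found for 186 genes, so with 3 libraries this pattern is shared by many genes.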

How the data were processed

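RNA was measured in 3 libraries, 1 per genotype. TRIzol-extracted RNA was made into stranded mRNA libraries and read as 65 bp single ends, per the labels' protocols. The tools named are HTSeq, Bowtie 1.1 and TopHat2 2.1.0, with build mm10, per the submitters' processing notes. No source used here gives their settings, strand option or annotation, so antisense or overlapping genes may not be told apart. The deposited values are raw counts of reads per gene. Non-gene totals, 8.22% (ARPC4 ko), 8.48% (Nrf2-EGFP) and 9.08% (wt) of entries, were left out.

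Symbols were found for 40254 of 41214 identifiers (GENCODE M21, GRCm38), and coordinates and exon lengths came from the same annotation. Promoter sequences are from RefSeq (GRCm38.p6). CPM were computed with edgeR 4.0.16 (TMM) under R 4.3.3. The filter kept genes that reached 1 CPM in any library. Log2 folds use CPM + 0.5, and ratios use no pseudocount. Intervals are exact (Poisson for levels, Clopper-Pearson conditional on the sum for ratios) and cover counting error only, not the spread between cultures. PCR copies are not independent molecules, so the intervals may be too narrow even for counting error. For a count of 0 the limit is taken as 3 counts per library. With 1 library per group edgeR and DESeq2 tests could not be run. Steps were tested on simulated data. Alternatives were DESeq2 1.42.0 size factors, total counts, a pseudocount of 2 CPM, no filter, a filter of 10 CPM and longest-transcript lengths. All 10 genes are named. Of each other list the genes past the size rule are named, or else the 2 with the largest log2 folds, except where marked and for 1 gene that is not reported here. The genes and lists were chosen with earlier results of these data known.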

Additional observations from a re-analysis of the deposited data

How the results depend on the processing

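None of the 10 genes passed the size rule in any of the 3 comparisons with either of the 2 other scalings. A pseudocount of 2 CPM can only shrink a log2 fold, and no filter or a filter of 10 CPM leaves these folds unchanged. Those alternatives could therefore neither add a pass nor change a sign. Of the 30 log2 folds none changed sign with DESeq2 size factors. With scaling by total counts 4 did, all between ARPC4 ko and Nrf2-EGFP. With that scaling the all-gene median shifted by 0.10 in ARPC4 ko against wt and by 0.12 in ARPC4 ko against Nrf2-EGFP. It put the interval of Keap1 in ARPC4 ko against wt above 1 (1.03 to 1.19).

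Genes past the size rule numbered 802, 666 and 353 in ARPC4 ko against wt, Nrf2-EGFP against wt and ARPC4 ko against Nrf2-EGFP. They numbered 454, 362 and 147 with a pseudocount of 2 CPM and 374, 334 and 114 with a filter of 10 CPM. NRF2 targets past the rule then numbered 1 in place of 4 in Nrf2-EGFP against wt and 0 in place of 3 in ARPC4 ko against Nrf2-EGFP under either of these. In ARPC4 ko against wt they numbered 2 with the pseudocount and 1 with the filter, in place of 3. No paired analysis was possible because each group has 1 library. Depth limits Nfe2l3 and Maff most, with 214 and 341 counts in wt, and the spread between cultures was not measured.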
